A study of Mus musculus with 9 samples.

Results

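The genes described here are those of the MHC class II pathway that the array measured under a single symbol. They were 9 of 19938 genes, namely H2-Aa, H2-Ab1, H2-Eb1, H2-Eb2, H2-DMa, H2-Oa, H2-Ob, Cd74 and Ciita. They were chosen by name, each through its probe set with that symbol alone, and all 9 had 1 such probe set. RNA was measured on Affymetrix arrays in 3 sorted populations of CX3CR1 gfp+/- mice, in which a green fluorescent protein (GFP) sequence replaces 1 copy of the fractalkine receptor gene, and every population carried this genotype. T cell zone macrophages (TZM) of the lymph node were sorted as GFP-high, MertK+, CD11b+ and CD169-. Microglia of the brain were sorted as GFP-high, CD11b+ and CD45+. CD8a+DC, the cross-presenting dendritic cells, were sorted as CD64- and CD8a+ cells with high CD11c and high class II protein. The sample fields name the lymph node as the source of CD8a+DC and the sorting protocol names the spleen. Each population had 3 arrays labelled as biological replicates, and strain, age and pooling of animals are not given in the sources used here. Class II protein was part of the CD8a+DC gate. H2-Aa, H2-Ab1 and H2-Eb1, which encode class II chains, were therefore treated as genes of the gate, and their differences from CD8a+DC are no finding. H2-Eb2 also encodes a class II beta chain but was counted outside the gate. Neither the TZM gate nor the microglia gate used class II.

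MHC class II molecules are pairs of an alpha and a beta chain that present peptides from the endocytic pathway to CD4+ T cells. New pairs are held by the invariant chain, the product of Cd74, which blocks the groove and guides them to late endosomes. There proteases trim the invariant chain, the chaperone H2-M exchanges its last fragment for peptides, and H2-O, a relative of H2-M, restrains that exchange. Ciita encodes the class II transactivator, a coactivator that does not itself bind DNA but is recruited by the factors RFX, CREB and NF-Y to the X and Y boxes shared by class II promoters. Dendritic cells keep this pathway switched on, whereas resting microglia have little of it, and macrophages raise it in response to interferon gamma.

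The shared promoter elements are printed because these genes are the targets of the coactivator described below. In the RefSeq promoter table of build GRCm38.p6, which gives 250 bases before and 50 bases after each listed start, 6 members had a window. H2-Ab1, Cd74 and Ciita had none. The letters GCAAC, found in RFX half-sites of X boxes, were searched together with ATTGG, the reverse complement of the CCAAT core bound by NF-Y, with ATTGG starting 25 to 40 bases after GCAAC on the same strand. These limits were set after the sequences had been read, and the 2 motifs do not overlap. The pair was present on the gene strand in the windows of H2-Aa, H2-Eb1, H2-Eb2, H2-Oa and H2-Ob, with spacings of 33, 32, 32, 33 and 30 bases. Over all 32851 windows the pair occurred on the gene strand in 0.39% and on either strand in 0.794%, while GCAAC alone occurred on either strand in 35.2% and ATTGG alone in 37.4%. Neither of the 2 windows of H2-DMa held the pair. Each stretch below has 100 bases, 5′ to 3′ on the gene strand, with GCAAC and ATTGG in capitals. They lie at chr17:34287830-34287929 on the minus strand for H2-Aa, and on the plus strand at chr17:34305751-34305850 for H2-Eb1, chr17:34325518-34325617 for H2-Eb2, chr17:34092278-34092377 for H2-Oa and chr17:34238793-34238892 for H2-Ob.
H2-Aa: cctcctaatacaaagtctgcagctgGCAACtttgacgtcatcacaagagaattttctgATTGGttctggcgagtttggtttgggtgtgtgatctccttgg
H2-Eb1: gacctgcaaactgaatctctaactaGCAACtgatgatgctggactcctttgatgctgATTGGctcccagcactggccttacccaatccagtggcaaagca
H2-Eb2: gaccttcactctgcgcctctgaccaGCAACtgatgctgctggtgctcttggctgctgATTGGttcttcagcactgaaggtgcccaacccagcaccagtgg
H2-Oa: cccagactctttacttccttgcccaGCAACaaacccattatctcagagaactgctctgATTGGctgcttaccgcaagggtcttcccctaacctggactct
H2-Ob: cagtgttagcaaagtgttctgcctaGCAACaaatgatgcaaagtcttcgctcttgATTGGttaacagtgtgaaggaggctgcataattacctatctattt
Where the pair was found, its GCAAC began 81 bases before the start in H2-Aa, 91 in H2-Eb1, 132 in H2-Eb2, 76 in H2-Oa and 87 in H2-Ob. A match describes the letters only and shows no binding.

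Levels are log2 values after robust multi-array averaging (RMA), and levels of different probe sets are not set against each other. The number of arrays limits the precision. Array medians over all genes were 4.90 to 5.02. The mean level over 10 macrophage markers was 10.12 to 10.48 in TZM, 9.47 to 9.60 in microglia and 4.66 to 5.0 in CD8a+DC. That over 10 markers of CD8a+ dendritic cells was 6.02 to 6.11 in TZM, 5.51 to 5.58 in microglia and 9.73 to 9.84 in CD8a+DC. That over 9 measured microglia markers was 6.60 to 6.76 in TZM, 11.07 to 11.19 in microglia and 5.19 to 5.31 in CD8a+DC. A pair of arrays stood apart in markers of other cells. Microglia replicate 2 lacked most of the signal of Ttr, a choroid plexus transcript, which was at 12.15, 5.48 and 11.83 in the 3 microglia arrays. TZM replicate 2 was the highest TZM array for the neutrophil alarmin genes S100a8 and S100a9, with S100a8 at 5.89, 9.28 and 7.32 in the 3 TZM arrays. It was also highest for 7 of 8 monocyte and 6 of 9 B cell markers, but for only 3 of 9 neutrophil markers. Of the 10 macrophage markers, 8 were lowest in it. The shares of all genes highest or lowest in TZM replicate 2 were not counted. In sorted bulk samples, fewer cells of a type and less RNA per cell cannot be told apart.

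**Figure D1:**
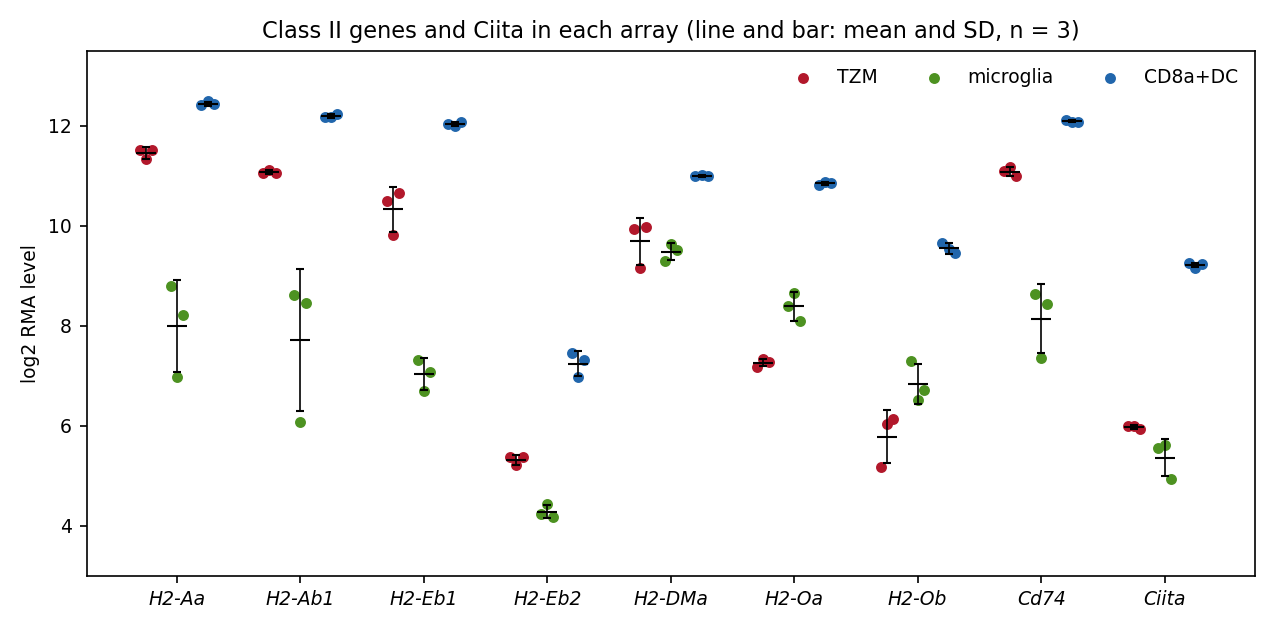
Log2 RMA level (y axis) of the 9 genes in each array, with TZM in red, microglia in green and CD8a+DC in blue, and the mean and SD of 3 arrays in black. CD8a+DC were above every other array for all 9 genes, TZM were well above microglia for H2-Aa, H2-Ab1, H2-Eb1 and Cd74, and microglia were above TZM for H2-Oa and H2-Ob.

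The genes for the I-A molecule, the main class II product on the cell surface, were high in TZM and in CD8a+DC and much lower in microglia. H2-Aa, its alpha chain, was at 11.52, 11.33 and 11.52 in TZM, at 8.79, 6.98 and 8.22 in microglia, and at 12.41, 12.49 and 12.43 in CD8a+DC. H2-Ab1, its beta chain, was at 11.06, 11.12 and 11.05 in TZM, at 8.61, 6.08 and 8.46 in microglia, and at 12.17, 12.17 and 12.23 in CD8a+DC. The 3 populations did not overlap for either gene, and microglia replicate 2 lay far below the other microglia arrays. Against microglia, TZM were higher by 3.46 (log2, SE 0.38, adjusted p = 0.00028) for H2-Aa and by 3.36 (SE 0.57, adjusted p = 0.0035) for H2-Ab1, which are 11-fold and 10.3-fold differences. Against CD8a+DC, the log2 fold changes of TZM were -0.98 (95% interval -1.85 to -0.12, adjusted p = 0.12) for H2-Aa and -1.12 (-2.43 to 0.20, adjusted p = 0.25) for H2-Ab1, neither of them called. These wide intervals use a spread pooled over all 3 populations. With only TZM and CD8a+DC in the fit, the adjusted p of the same difference was 0.00039 for H2-Aa, still under the minimum fold change, and 6.1e-05 for H2-Ab1, which was then called. Without microglia replicate 2, H2-Ab1 was called as well, with an adjusted p of 1.6e-05. Both are genes of the class II gate, so their differences from CD8a+DC are no finding.

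H2-Eb1 and H2-Eb2 encode beta chains of the I-E isotype. H2-Eb1 was at 10.50, 9.82 and 10.66 in TZM, at 7.32, 6.69 and 7.07 in microglia, and at 12.03, 12 and 12.07 in CD8a+DC, so that the populations were again fully apart. It was higher in TZM than in microglia by 3.30 (log2, SE 0.23, adjusted p = 1.6e-05) and lower in TZM than in CD8a+DC, at -1.71 (SE 0.23, adjusted p = 0.00073). Because H2-Eb1 is a gene of the class II gate, its difference from CD8a+DC is no finding. H2-Eb2 was at 5.37, 5.21 and 5.38 in TZM, at 4.24, 4.43 and 4.18 in microglia, and at 7.45, 6.97 and 7.31 in CD8a+DC. The order of the populations was the same as for H2-Eb1, again with no overlap. The log2 fold change of H2-Eb2 was -1.93 (SE 0.13, adjusted p = 1.1e-05) for TZM against CD8a+DC and 1.03 (SE 0.13, adjusted p = 0.00059) for TZM against microglia. The second of these calls sat at the minimum fold change and ended without microglia replicate 3 (0.98, adjusted p = 0.0036). With microglia replicates 1 and 3 left out together the log2 fold change was 0.89, under that minimum. In microglia H2-Eb2 averaged 4.28, under the median gene level of 4.96 over all arrays. H2-Ea, named after its values were seen, is the gene of the alpha chain that pairs with these beta chains, and it averaged 3.81 ± 0.06 in TZM, 3.81 ± 0.03 in microglia and 4.03 ± 0.14 in CD8a+DC (SD, n = 3 each), and it was called in none of the 3 comparisons (adjusted p = 0.099 for TZM and 0.085 for microglia against CD8a+DC, and 1.0 between TZM and microglia). The H2-Ea means were low, as the 25th percentile of gene levels over all arrays was 3.89. Whether I-E protein reached the cell surface was not measured here. In TZM replicate 2, H2-Eb1 was lower than in the other TZM arrays, and without this array its log2 fold change against CD8a+DC was -1.45 (adjusted p = 0.00052). S100a8 and most monocyte and B cell markers were highest in the same TZM array, and the part of other cells in the result was not tested.

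Cd74, the invariant chain gene, followed the I-A genes. It was at 11.09, 11.17 and 10.99 in TZM, at 8.63, 7.35 and 8.43 in microglia, and at 12.11, 12.08 and 12.08 in CD8a+DC, with no overlap between populations. TZM were 7.69-fold above microglia (log2 fold change 2.94, SE 0.28, adjusted p = 0.00013). Against CD8a+DC the log2 fold change of -1.01 (SE 0.28, adjusted p = 0.037) stood at both thresholds. That call ended when any TZM or CD8a+DC array was left out, at -0.96 to -1.05 (adjusted p = 0.065 to 0.11), and with the replicate block (-1.01, adjusted p = 0.052). The log2 fold change itself does not use the microglia arrays and stayed at -1.01 with microglia replicates 1 and 3 left out together.

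H2-DMa encodes the alpha chain of the peptide exchange chaperone H2-M, and it was the member that differed least between the 2 macrophage populations. It was at 9.94, 9.15 and 9.98 in TZM, at 9.30, 9.63 and 9.51 in microglia, and at 10.99, 11.02 and 10.99 in CD8a+DC. TZM and microglia overlapped, with a log2 difference of 0.21 (95% interval -0.27 to 0.68, adjusted p = 0.60) that leaves room for a small change in either direction. TZM replicate 2 had the lowest H2-DMa and, among TZM arrays, the highest S100a8 and most of the monocyte and B cell markers at their highest. Without it the difference was 0.48 (adjusted p = 0.012), still under the minimum fold change. Both populations were lower than CD8a+DC, TZM at -1.31 (SE 0.21, adjusted p = 0.0021) and microglia at -1.52 (SE 0.21, adjusted p = 0.00067), and without TZM replicate 2 the first value was -1.04 (adjusted p = 0.00019).

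H2-Oa and H2-Ob encode the alpha and beta chains of H2-O, the inhibitor of H2-M, and both were lowest in TZM. H2-Oa was at 7.18, 7.34 and 7.27 in TZM, at 8.40, 8.66 and 8.10 in microglia, and at 10.82, 10.87 and 10.84 in CD8a+DC. H2-Ob was at 5.18, 6.03 and 6.13 in TZM, at 7.29, 6.51 and 6.71 in microglia, and at 9.66, 9.53 and 9.45 in CD8a+DC. For both genes every TZM array lay below every microglia array, and every microglia array below every CD8a+DC array. Against CD8a+DC the TZM levels were 12-fold lower for H2-Oa (log2 fold change -3.58, SE 0.13, adjusted p = 3.1e-07) and 13.6-fold lower for H2-Ob (-3.76, SE 0.27, adjusted p = 2e-05). Against microglia the differences were smaller, at -1.12 (SE 0.13, adjusted p = 0.00035) for H2-Oa and -1.05 (SE 0.27, adjusted p = 0.027) for H2-Ob. Both sat near the minimum fold change. H2-Oa had -0.98 (adjusted p = 0.00042) without microglia replicate 2, under the fold minimum. The H2-Ob call ended without TZM replicate 1 (-0.75, adjusted p = 0.049), without microglia replicate 1 (-0.83, adjusted p = 0.090), without microglia replicate 3 (-1.12, adjusted p = 0.058), with only TZM and microglia in the fit (adjusted p = 0.086) and with the replicate block (adjusted p = 0.068).

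B cells are the other abundant source of H2-O in lymphoid tissue. Of 10 B cell markers, 9 were measured, and their mean level was 5.05 to 5.20 in TZM, 4.33 to 4.54 in microglia and 4.95 to 5.01 in CD8a+DC. Among them 7 in TZM, 8 in microglia and 6 in CD8a+DC had a mean level under 5. Pax5, a defining regulator of B cells, was at 4.24 to 4.43 in CD8a+DC, and the antigen receptor subunit gene Cd79a was at 3.87 to 4.21 there. Its partner Cd79b ran higher in TZM, at 9.69, 8.27 and 9.86, and in microglia, at 7.56, 8.48 and 7.50, than in CD8a+DC, at 6.43, 7.01 and 6.44. Ms4a1, which encodes CD20, was at 4.72, 5.21 and 4.53 in TZM and at 4.16, 4.03 and 3.89 in microglia, below its values of 7.42, 7.06 and 6.84 in CD8a+DC. Fcrla was likewise higher in CD8a+DC, at 6.81, 6.57 and 7.27, than in TZM (4.89, 5.07 and 5.07) and microglia (4.63, 4.88 and 4.58). Of the 9 markers, 2 were called lower and 2 higher in TZM than in CD8a+DC (4.03% and 4.71% of all genes). Against CD8a+DC, microglia had 2 lower and 0 higher (6.01% and 5.15% of all genes). The part of B cell transcripts in the H2-Oa and H2-Ob levels was not tested.

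Ciita, the transactivator gene, was high in CD8a+DC alone. It was at 6.0, 5.99 and 5.94 in TZM, at 5.54, 5.61 and 4.93 in microglia, and at 9.25, 9.16 and 9.24 in CD8a+DC. TZM were 9.43-fold below CD8a+DC (log2 fold change -3.24, SE 0.16, adjusted p = 1.8e-06), and microglia were 14.4-fold below them (-3.85, SE 0.16, adjusted p = 4.5e-07). Between TZM and microglia the arrays did not overlap, but the difference of 0.61 (95% interval 0.25 to 0.98, adjusted p = 0.027) was under the minimum fold change. With microglia replicates 1 and 3 left out together it was 0.37.

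**Figure D2:**
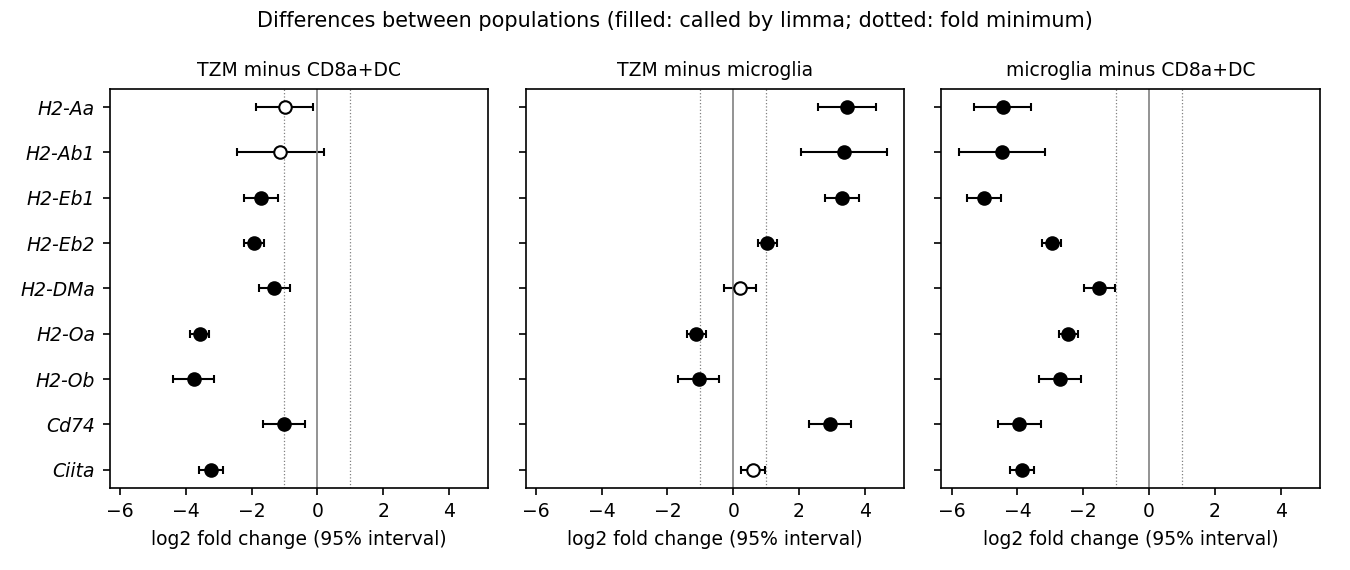
Log2 fold change (x axis) with its 95% interval for each gene (rows) in the comparisons TZM minus CD8a+DC, TZM minus microglia and microglia minus CD8a+DC. In TZM minus CD8a+DC the points run from -0.98 for H2-Aa to -3.76 for H2-Ob, and in TZM minus microglia H2-Oa and H2-Ob lie left of 0 while H2-Aa, H2-Ab1, H2-Eb1 and Cd74 lie at 2.94 or above.

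Calls required both a limma adjusted p under 0.05 and a difference of 1 log2 unit or more. In TZM against CD8a+DC 7 of the 9 members were lower and 0 were higher, where 4.03% of all genes were called lower, 4.71% higher and 8.74% in either direction. Their median log2 fold change was -1.71, and that of all genes was 0.02. All 3 TZM arrays lay below all 3 CD8a+DC arrays for 9 of 9 members, as they did for 16.1% of all genes. Outside the 3 genes of the class II gate, 6 of 6 members were lower, with a median of -2.58. These 6 include H2-Eb2 (-1.93), itself a gene of a class II beta chain. Counts over all 9 members against CD8a+DC include the gate genes. The other 6 share the pathway of the sorted protein, and the part of the gate in their differences was not tested. In TZM against microglia 5 members were higher (4.25% of all genes), 2 were lower (3.4%, and 7.65% of all genes in either direction) and 2 were not called, with a median of 1.03 beside 0.01 for all genes. The members were apart upward for 6 genes and downward for 2, shares of all genes being 15.8% and 14.7%. In microglia against CD8a+DC 9 of 9 members were lower, where 6.01% of all genes were called lower, 5.15% higher and 11.2% in either direction. All 9 were also apart downward, as were 19.0% of all genes, with 18.8% apart upward. Their median was -3.85, and the largest differences were those of H2-Eb1 at -5.01 (SE 0.23) and H2-Ab1 at -4.47 (SE 0.57), both genes of the class II gate. The 6 members counted outside the gate, H2-Eb2 among them, had a median of -2.84. Both comparisons against CD8a+DC share the CD8a+DC arrays, and both comparisons of TZM share the TZM arrays. With microglia replicates 1 and 3 left out together, 1 microglia array remained, so no counts of calls are given for that fit.

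The microglia arrays disagreed with each other on part of this gene set. H2-Aa, H2-Ab1 and Cd74 were at least 1 log2 unit lower in microglia replicate 2 than in both other microglia arrays, which holds for 3 of 9 members and for 56 of all genes (0.281%). The SD of H2-Ab1 over the 3 microglia arrays was 1.42, a spread exceeded by 4 of 19938 genes, and the SDs of H2-Aa and Cd74 were 0.93 and 0.69, where the median gene had 0.10. H2-Eb1 was lower there too, by 0.51 against the mean of the other arrays. H2-Ob was likewise lowest in microglia replicate 2, at -0.49 from that mean. The other members were above it there, H2-DMa by 0.23, H2-Oa by 0.42, Ciita by 0.37 and H2-Eb2 by 0.22.

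Markers of border macrophages, the class II-bearing macrophages of the meninges, perivascular spaces and choroid plexus, moved with the same array. All 10 of 10 were lowest in microglia replicate 2, by -2.34 to -0.14 against the mean of the other arrays with a median of -0.83, and their mean level was 6.63, 5.51 and 6.50 in the 3 microglia arrays. The share of all genes lowest in that array was not counted. Ms4a7 was at 6.80, 4.37 and 6.63, Pf4 at 9.11, 7.05 and 8.72, F13a1 at 6.51, 4.81 and 6.54, and the mannose receptor gene Mrc1 at 8.96, 7.21 and 8.54. Cd163 and Cd209f, which also mark these cells, were at 5.16, 4.10 and 4.84 and at 4.52, 3.96 and 4.41. Stab1 moved least of the list, at 8.47, 8.41 and 8.64. The border macrophage list was at 6.31 to 6.71 in TZM and at 4.28 to 4.40 in CD8a+DC, and Ms4a7, Pf4 and Mrc1 were also high in TZM. The 9 microglia markers changed by -0.20 to 0.21 in replicate 2, and the mean of the list for CD11b+ and migratory dendritic cells was 6.51, 6.42 and 6.46 in the 3 microglia arrays. The part of border macrophage and choroid plexus transcripts in the class II levels of microglia was not tested. In microglia replicate 2, the array with the least of them, H2-Aa, H2-Ab1, H2-Eb1 and Cd74 were at 6.98, 6.08, 6.69 and 7.35. TZM exceeded that array alone by 4.48, 4.99, 3.64 and 3.73 (log2). A lone array gives no spread, so these are effect sizes only.

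**Figure D3:**
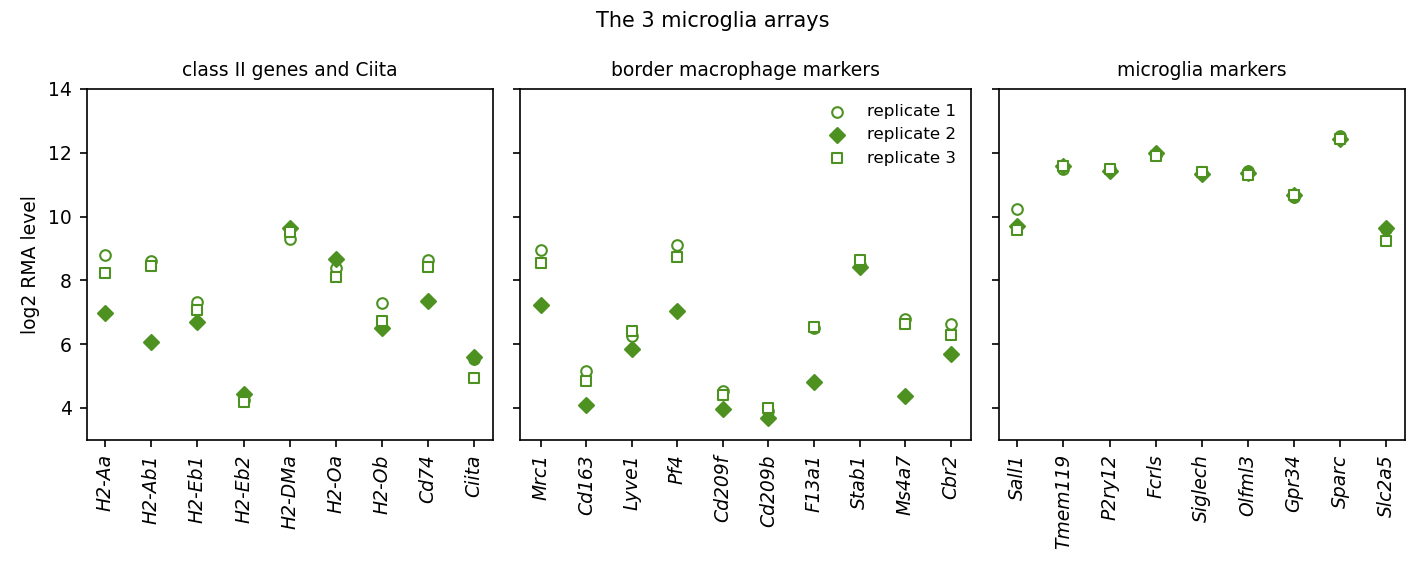
Log2 RMA level (y axis) in the 3 microglia arrays for the 9 genes, for 10 border macrophage markers and for 9 microglia markers, with replicate 2 as filled diamonds. Replicate 2 is lowest for all 10 border macrophage markers and far below the others for H2-Aa, H2-Ab1 and Cd74, whereas the microglia markers of replicate 2 lie -0.20 to 0.21 from the mean of the others.

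Differences between members within an array show which genes changed by unequal amounts. Ciita minus Cd74 was -5.08, -5.18 and -5.05 in TZM, -3.09, -1.74 and -3.50 in microglia, and -2.86, -2.92 and -2.85 in CD8a+DC. Ciita thus differed more than Cd74 between TZM and CD8a+DC, with a shift of -2.23, and TZM had the lowest difference of all arrays. Cd74 averaged 12.09 in CD8a+DC, where 47 genes, Cd74 included, stood at or above it. Ciita averaged 5.98 in TZM and 5.36 in microglia. The part of the measuring range of the arrays in these shifts was not tested. Microglia and CD8a+DC overlapped, with a shift of 0.10 that became -0.42 without microglia replicate 2. H2-Oa minus H2-DMa was -2.76, -1.81 and -2.71 in TZM, -0.90, -0.97 and -1.42 in microglia, and -0.16, -0.16 and -0.14 in CD8a+DC. The inhibitor chain therefore stood lower relative to the exchange chaperone chain in TZM than in microglia (shift -1.33) or CD8a+DC (shift -2.27). H2-Ob minus H2-DMa gave shifts of -1.26 and -2.46, with TZM and microglia overlapping (-4.76, -3.11 and -3.85 in TZM, and -2.01, -3.12 and -2.81 in microglia). H2-Eb2 minus H2-Eb1 had a mean of -5.01 ± 0.35 in TZM, -2.74 ± 0.43 in microglia and -4.79 ± 0.23 in CD8a+DC (SD, n = 3 each), where the values in CD8a+DC hold a gene of the class II gate and no difference from them is read. H2-Eb2 was low in microglia, at a mean of 4.28, and the part of this low level in the shift was not tested. In an exact two-sided permutation test over 6 arrays, the smallest p that 20 assignments allow is 0.1, so no shift can reach 0.05. Of the 12 shifts, 9 had p = 0.1 by this exact permutation test, and H2-Ob minus H2-DMa for TZM against microglia had p = 0.2, H2-Eb2 minus H2-Eb1 for TZM against CD8a+DC p = 0.4 and Ciita minus Cd74 for microglia against CD8a+DC p = 1. These values are not adjusted over the 12 shifts.

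**Figure D4:**
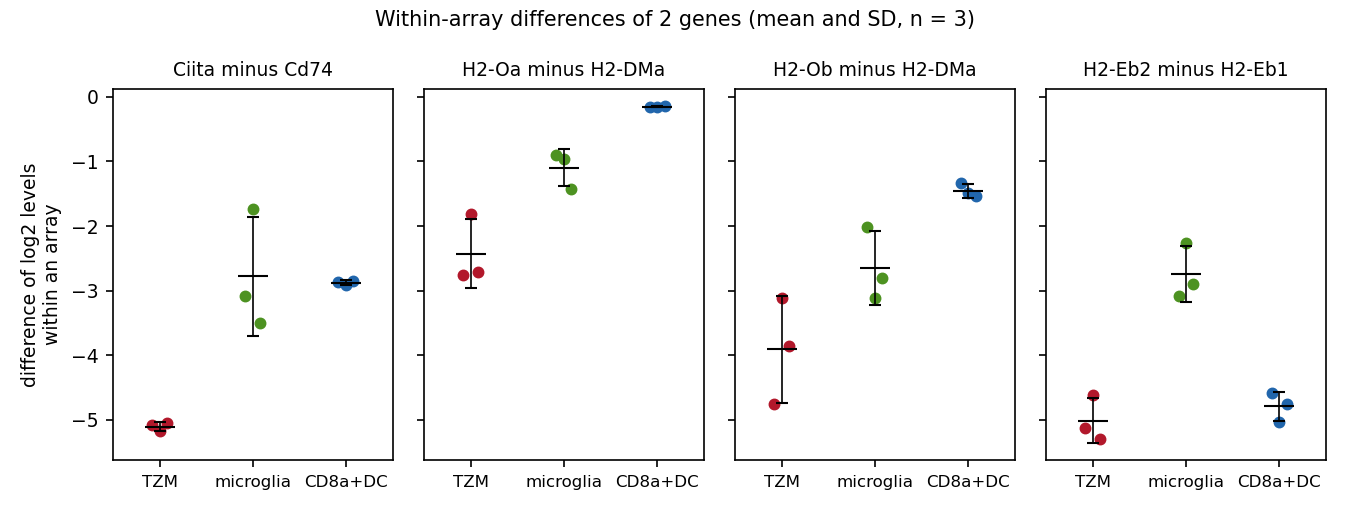
Difference of the log2 levels of 2 genes within an array (y axis) for Ciita minus Cd74, H2-Oa minus H2-DMa, H2-Ob minus H2-DMa and H2-Eb2 minus H2-Eb1, with TZM in red, microglia in green, CD8a+DC in blue, and mean and SD in black. Ciita minus Cd74 lies near -5 in TZM and near -3 in CD8a+DC, and H2-Oa minus H2-DMa is lowest in TZM and nearest 0 in CD8a+DC.

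Against CD8a+DC, the genes of the factors that recruit the transactivator had smaller log2 fold changes in TZM than Ciita. Of 20 listed class II transcription factors and cofactors 19 were measured, of which 1 was higher and 1 lower in TZM than in CD8a+DC (median -0.55), where 8.74% of all genes were called. By limma 0 were called between TZM and microglia, where 7.65% of all genes were called, but 8 had an adjusted p under 0.05 and 10 an unadjusted p under 0.05. The RFX subunit gene Rfx5 averaged 5.64 ± 0.04 in TZM, 6.01 ± 0.10 in microglia and 6.54 ± 0.09 in CD8a+DC (SD, n = 3 each), with a log2 fold change of -0.90 (adjusted p = 4e-05) for TZM against CD8a+DC, under the minimum fold change. The other RFX subunits had -0.63 (Rfxap) and -0.03 (Rfxank) in that comparison. Between TZM and microglia Rfx5 had -0.37 (adjusted p = 0.0081), Rfxank -0.46 (adjusted p = 0.0033) and the NF-Y gene Nfya -0.84 (adjusted p = 0.0089), against 0.61 for Ciita. Against CD8a+DC the NF-Y genes Nfya, Nfyb and Nfyc had -0.35, -0.59 and -0.17, and Creb1 had -0.15. Among activators of Ciita, Spi1 (PU.1) had -0.40, Irf1 -0.87, Irf2 -0.82, Irf4 -0.65 and Irf8 -0.93, and Irf8 was called lower in microglia than in CD8a+DC at -1.41 (adjusted p = 1.3e-05). Prdm1, which encodes the repressor BLIMP-1 that silences Ciita in plasma cells, was higher than in CD8a+DC by 1.68 in TZM (adjusted p = 0.00024) and by 1.97 in microglia (adjusted p = 6.8e-05), and it did not pass the test between TZM and microglia (-0.29, adjusted p = 0.36). Its mean level was 6.33 ± 0.20 in TZM, 6.62 ± 0.11 in microglia and 4.65 ± 0.38 in CD8a+DC. Zbtb46, a transcription factor of dendritic cells, was lower in TZM at -1.53 (adjusted p = 1.1e-05) and in microglia at -1.86 (adjusted p = 2.6e-06). Pax5 had 0.37, and the cofactor genes Crebbp, Ep300, Kat2b and Hdac2 had -0.24, 0.13, -0.60 and -0.55 for TZM against CD8a+DC, none of them called.

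Of 16 listed genes for processing of the invariant chain and of antigens, all measured, 9 were higher, 0 lower and 7 not called in TZM against CD8a+DC, with a median log2 fold change of 1.36, where 4.71% of all genes were called higher. Ctsd was higher by 5.35 (adjusted p = 3.7e-07), Ctsc by 3.05, the asparaginyl endopeptidase gene Lgmn by 2.93 and Ctsl by 2.51. Ctss, whose product makes the last cut of the invariant chain in dendritic cells, averaged 11.96 ± 0.05 in TZM, 12.20 ± 0.05 in microglia and 10.79 ± 0.07 in CD8a+DC. Between TZM and microglia the list went both ways, with 2 higher, 3 lower and 11 not called (7.65% of all genes called), and its median was 0.28. Ifi30, the thiol reductase that unfolds antigens, was higher in TZM by 2.58 (adjusted p = 1.1e-05) and Ctsc by 1.19, whereas Lgmn (-1.73), Ctsf (-1.17) and Ctsl (-1.05) were lower. Microglia had 8 of these genes above CD8a+DC (5.15% of all genes) and 1, Ifi30, below (6.01% of all genes), at -1.84 (adjusted p = 5.2e-05).

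Of 16 genes for the turnover and surface traffic of class II, 15 were measured, with 4 higher and 1 lower in TZM than in CD8a+DC (median 0.38), and 1 higher and 2 lower in TZM than in microglia (median 0.14). Shares of all genes called higher and lower were 4.71% and 4.03% against CD8a+DC, and 4.25% and 3.4% against microglia. Marchf1, the ubiquitin ligase that removes class II from the surface of resting dendritic cells, averaged 7.78 ± 0.06 in TZM, 7.74 ± 0.17 in microglia and 8.07 ± 0.01 in CD8a+DC and was not called. Its relative Marchf8 was higher in TZM than in CD8a+DC by 1.98 (adjusted p = 5.4e-06). Cd83, which opposes Marchf1, was lower in TZM than in CD8a+DC, at -1.84 (adjusted p = 0.00066), and than in microglia, at -1.78 (adjusted p = 0.00088), with TZM values of 10.08, 9.18 and 10.20, so that it was again lowest in TZM replicate 2. Myo1e, a motor that carries class II compartments, was higher in TZM by 4.74 and 3.42 against CD8a+DC and microglia. Il10rb, a subunit of the interleukin 10 receptor, was higher in TZM than in CD8a+DC by 1.73 (adjusted p = 0.00046). The tetraspanin gene Cd9 was lower in TZM than in microglia, at -1.70 (adjusted p = 0.0025), and the tetraspanin gene Cd37 was higher in microglia than in CD8a+DC by 1.26 (adjusted p = 0.024).

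**Figure D5:**
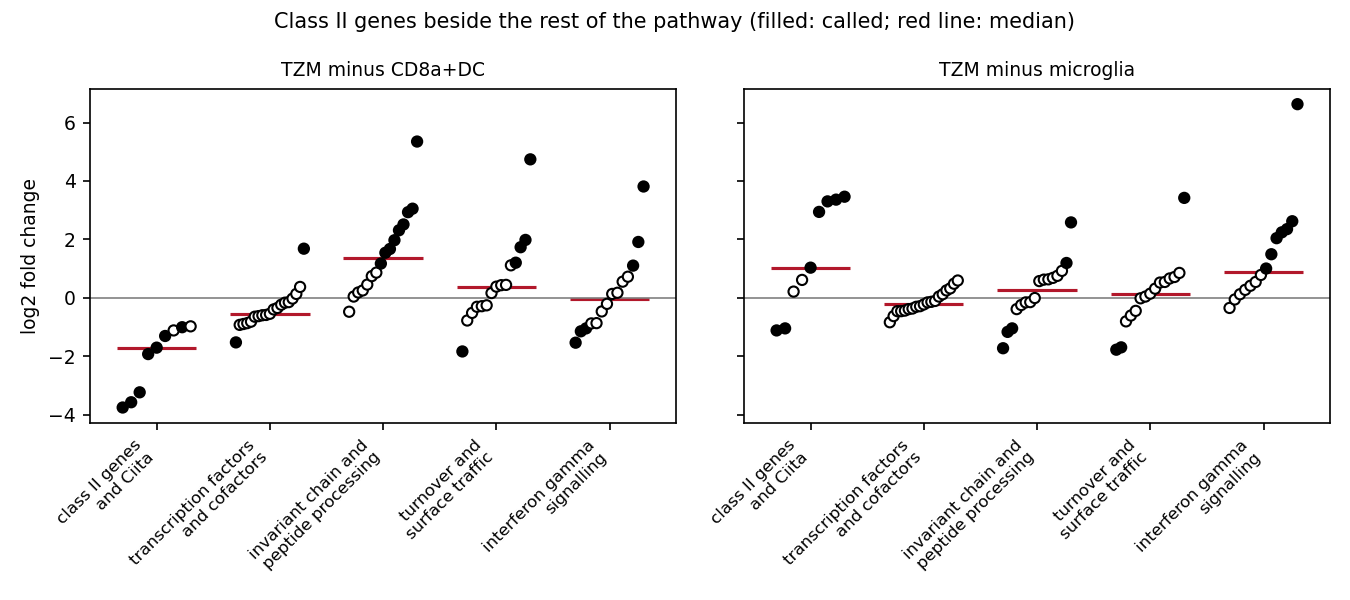
Log2 fold change (y axis) of each measured gene for TZM minus CD8a+DC and TZM minus microglia, for the 9 class II members and for 4 lists of the pathway, with called genes filled and the median of each list as a red line. In TZM minus CD8a+DC the class II members have a median of -1.71 and the invariant chain and peptide processing genes one of 1.36. The class II members include the 3 genes of the class II gate, and the other 6 have a median of -2.58.

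Interferon gamma is the main inducer of Ciita outside dendritic and B cells. Of 16 listed genes of its signalling 14 were measured, with 3 higher and 3 lower in TZM than in CD8a+DC (median -0.04) and 7 higher and 0 lower in TZM than in microglia (median 0.89). Among all genes, 4.71% were called higher and 4.03% lower against CD8a+DC, and 4.25% and 3.4% against microglia. The largest difference from microglia was that of the chemokine gene Cxcl9, a classic interferon gamma target, which averaged 12.03 ± 0.11 in TZM, 5.40 ± 1.3 in microglia and 11.89 ± 0.03 in CD8a+DC (SD, n = 3 each). Its log2 fold change was 6.63 for TZM against microglia (adjusted p = 4.1e-05) and 0.13 for TZM against CD8a+DC (adjusted p = 0.92). Gbp5 was higher in TZM by 1.10 against CD8a+DC and by 2.35 against microglia. Gbp3 was higher in TZM by 3.81 and 2.62 against CD8a+DC and microglia, and Cxcl10 by 1.91 and 2.24, while Jak2 was lower than in CD8a+DC at -1.54. The receptor gene Ifngr1 averaged 10.29 ± 0.18 in TZM, 10.64 ± 0.03 in microglia and 10.77 ± 0.04 in CD8a+DC and was not called in any comparison. The immunoproteasome genes Psmb8 and Psmb9, which lie in the class II region, were lower in TZM than in CD8a+DC (-1.15 and -1.05) and higher than in microglia (1.0 and 1.49). Of 8 measured other genes of that region, 4 were lower in TZM than in CD8a+DC, namely Notch4 (-1.53), Tap2 (-1.10), Psmb8 and Psmb9, and 3 were higher than in microglia, namely Tap1 (2.04), Psmb9 and Psmb8.

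Among 8 genes for ligands of class II and partners of the invariant chain, all measured, 3 were higher and 0 lower in TZM than in CD8a+DC, and 5 were higher and 0 lower in TZM than in microglia. For this list and the T cell markers below, 4.71% of all genes were called higher in TZM than in CD8a+DC and 4.25% than in microglia. Cd4, the class II coreceptor gene, averaged 10.83 ± 0.24 in TZM, 5.32 ± 0.26 in microglia and 6.76 ± 0.08 in CD8a+DC (SD, n = 3 each), a log2 fold change of 5.51 against microglia (adjusted p = 8.5e-08) and of 4.07 against CD8a+DC (adjusted p = 4e-07). The T cell genes Cd3e, Cd3d and Cd3g were at 5.97 to 6.38, 4.78 to 5.10 and 3.94 to 5.02 in TZM, and Bcl11b, a T cell transcription factor, at 5.29 to 5.49. The 8 measured T cell markers had a mean level of 5.39 to 5.54 in TZM, 4.34 to 4.40 in microglia and 4.57 to 4.69 in CD8a+DC, and Cd28 was the 1 marker called higher in TZM than in CD8a+DC. Against microglia 3 were called higher in TZM, namely Cd28 (4.84), Cd3d (1.20) and Cd3g (1.16), and 0 lower. The part of T cell transcripts in the Cd4 level of TZM was not tested. Lag3, which encodes another class II receptor, was higher in TZM than in CD8a+DC by 1.88 (adjusted p = 0.0002) and did not pass the test against microglia (-0.59, adjusted p = 0.081). The invariant chain partners Cd44, Cxcr4 and Cxcr2 were higher in TZM than in microglia by 5.01, 4.44 and 5.74, and Cxcr2 was higher than in CD8a+DC by 5.74. Cxcr2 is also a neutrophil gene, and the mean of 9 measured neutrophil markers was 5.51, 6.36 and 5.96 in TZM, 4.55 to 4.62 in microglia and 4.04 to 4.12 in CD8a+DC, and Cxcr2 itself was at 9.29, 9.27 and 8.77 in TZM. The part of neutrophil transcripts in the Cxcr2 level was not tested. Ddt, a relative of Mif, was higher in TZM than in microglia by 1.15 (adjusted p = 0.00051). Mif, a cytokine that binds the invariant chain, had 0.98 against microglia (adjusted p = 0.00068), just under the minimum fold change.

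The genes whose levels ran most like those of a member were sought by the root mean square (RMS) difference of mean-centred log2 levels over the 9 arrays. Nearest to Ciita were Map4k1 (RMS 0.15), Jaml (0.22), Slco3a1 (0.23), Septin6 (0.25) and Anxa1 (0.26). Map4k1 averaged 5.25 in TZM, 4.47 in microglia and 8.56 in CD8a+DC. Nearest to Cd74 were Septin9 (0.24), Fgl2 (0.33), Clic4 (0.33), Klrk1 (0.40) and Serpinb8 (0.40), which were higher in both lymphoid populations than in microglia. H2-Oa and H2-Ob shared Plekha5, Srgap3 and Cdk14 among their nearest genes, with RMS differences of 0.28, 0.32 and 0.34 from H2-Oa and of 0.36, 0.38 and 0.31 from H2-Ob. Gpr4 and St8sia4 completed the 5 for H2-Oa, and Pdia5 and Mctp1 those for H2-Ob. Cdk14 averaged 5.21 in TZM, 6.05 in microglia and 8.79 in CD8a+DC. The 9 arrays form 3 populations, so this measure reflects little more than the 3 population means.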

How the data were processed

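The deposited table held log2 RMA levels of 35556 probe sets on 9 arrays. The authors made these log2 values with Affymetrix Expression Console 1.3.1 and RMA, per the submitters' processing notes, and the genome build is not given in the sources used here. RMA makes arrays share 1 distribution, so a shift of all genes together would not be seen, and no detection call was used. Platform annotation paired 21789 probe sets with a single gene and 1621 with several, and left 12146 unnamed. Entrez identifiers linked 21698 of the single-gene probe sets to RefSeq symbols of GRCm38.p6. The probe set with the highest mean was kept for each gene, which left 19938 genes. Probe sets with several symbols were not used, among them one that joins genes of the H2-M beta chains.

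A linear model with the population as its term was fitted to all 9 arrays by limma 3.58.1 under R 4.3.3, followed by eBayes, with Benjamini-Hochberg adjustment over 19938 genes in each comparison, and SE and intervals come from that fit. Calls needed an adjusted p under 0.05 and a difference of 1 log2 unit or more. On simulated data of 19938 genes with 100 genes changed by 1.5 and 100 by 2 (log2), the fit called 93% and 98% for TZM against CD8a+DC, with 2 false calls, and 91% and 97% for TZM against microglia, with 0. Each simulated gene had 1 spread shared by all populations. These rates therefore do not carry over to genes such as H2-Aa and H2-Ab1, whose spread was far larger in microglia. The members, lists and tests were chosen with earlier results of these data known. Named genes were all members, up to 4 called genes with the greatest change in any list and comparison, the transcription factor list, and the 5 nearest genes of 4 members. H2-Ea, markers of other cells and list genes named beside these were added after their values were seen. Alternatives were another fold minimum, level filter, normalization, probe set choice, arrays in the fit, variance prior, replicate block and each array left out. Leaving out microglia replicates 1 and 3 together was chosen after seeing the data. Same-numbered arrays of 2 populations had correlations of their deviations from the population means of -0.15 to 0.13 (9 pairs), so the numbers were not taken as pairs.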

Additional observations from a re-analysis of the deposited data

How the results depend on the processing

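The counts of members called stayed within 1.5 times of the reported counts under all alternatives run. With 1 array left out they ran from 6 to 8 for TZM against CD8a+DC, from 5 to 7 for TZM against microglia, and stood at 9 for microglia against CD8a+DC. Of 513 recomputed log2 fold changes of single members, none changed sign, 18 lost a call and 4 gained one, and the calls concerned were those of Cd74 and H2-Ab1 against CD8a+DC and of H2-Eb2, H2-Oa, H2-Ob and Ciita between TZM and microglia. A sign could change only with quantile normalization, median centring, or an array of a compared population left out. The other alternatives alter the test or its thresholds and give the same log2 fold change by construction. Among them is leaving out an array of the population outside the comparison. Their unchanged signs therefore show no stability. For Cd74 against CD8a+DC the call also ended with quantile normalization (-0.87, adjusted p = 0.061). It ended too with every probe set tested (-1.01, adjusted p = 0.059). Ciita passed between TZM and microglia with no minimum fold change (0.61, adjusted p = 0.027). The replicate block changed the calls of Cd74 against CD8a+DC and of H2-Ob between TZM and microglia (-1.05, adjusted p = 0.068) and no other. The shift of Ciita minus Cd74 between microglia and CD8a+DC, 0.10 as reported, turned to -0.03 with quantile normalization and to -0.42 without microglia replicate 2, and with 1 array left out it ran from -0.42 to 0.46. The other 11 shifts kept their sign. Each of the 9 members has 1 probe set, so the mean over probe sets left their levels as they were. The number of arrays limits what can be told for differences near the minimum fold change.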
